A study of Mus musculus with 502 samples.

Results

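The silencers described here are those listed inside 5 windows of the human genome that hold cytokine and chemokine genes. A silencer was taken when its midpoint lay in a window, whatever its score. On hg38 the windows were chromosome 5 from 131.9 to 133.0 Mb, with IL3, CSF2, IL5, IL13 and IL4; chromosome 17 from 34.0 to 36.4 Mb, with CCL2, CCL3, CCL4 and CCL5; chromosome 4 from 73.7 to 74.2 Mb, with CXCL8 and CXCL1; chromosome 4 from 75.8 to 76.2 Mb, with CXCL9 and CXCL10; and chromosome 1 from 206.6 to 207.0 Mb, with IL10, IL19, IL20 and IL24. Together they span 4.8 Mb and held 549 of the 397137 silencers of the series (0.138%): 183 of 125249 in 293T, 171 of 134159 in K562 and 195 of 137729 in LNCap. The windows were chosen by gene, and each is named below by 1 of its genes (IL4, CCL2, CXCL8, CXCL9 or IL10). Human gene coordinates were not used here, so a silencer is placed in a window and not in a gene, exon, intron or UTR.

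The lists came from Ss-STARR-seq, a reporter assay in which sheared genomic DNA is cloned into a plasmid, transfected, and compared between the plasmid DNA (input) and the RNA it gives (output). It was run in 3 established human lines with no treatment in the labels: 293T, from embryonic kidney; K562, a leukaemia line with erythroid features; and LNCap, a prostate cancer line. The labels give 102 output and 1 input library for 293T, 180 output libraries for K562, and 179 output and 40 input libraries for LNCap, and they name the mouse as the organism, whereas the lines and the build are human. Each line has 1 deposited list, with no counts and no replicate lists, so read depth is unknown and the lines cannot be tested against each other over samples. The fragments were read on plasmids, outside their chromosome, and expression of the genes was not measured here.

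Cytokine genes sit in clusters that arose by gene duplication, and neighbours often share regulatory elements. In blood and lymphoid cells IL4, IL5 and IL13 are signals of the type 2 immune response, and IL3 and CSF2 are growth factors of myeloid cells. The chemokines are secreted attractants: CCL2 acts on monocytes, CCL3, CCL4 and CCL5 draw monocytes and T cells, CXCL8 and CXCL1 draw neutrophils, and CXCL9 and CXCL10 are induced by interferon gamma and act on T cells through CXCR3. IL10 restrains inflammation, while its relatives IL19, IL20 and IL24 act largely on epithelia. A silencer is a DNA element that lowers the output of a promoter; many of these genes are kept off outside immune cells.

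Silencer density differed among the cytokine windows. The CXCL9 window was the densest in 293T, K562 and LNCap, and the IL10 window the sparsest in 293T. The CCL2 window was sparse against the rest of its chromosome in all 3 lists and ended in a stretch with no silencer at all. Pooled over the windows there were 38.1 silencers per Mb in 293T, 35.6 in K562 and 40.6 in LNCap, against 40.6, 43.5 and 44.6 per Mb in the whole lists. Set against the rest of the windows' own chromosomes, the pooled count was 0.871 times the expected one in 293T (exact Poisson 95% interval 0.749 to 1.01), 0.686 times in K562 (0.587 to 0.797) and 0.747 times in LNCap (0.646 to 0.859). In K562 and LNCap the shortfall rested on the CCL2 window. Without it the ratio was 0.977 in K562 (0.796 to 1.19), while LNCap had 1.18 (0.984 to 1.41). All intervals take silencers as independent, and they hold counting error alone.

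**Figure D1:**
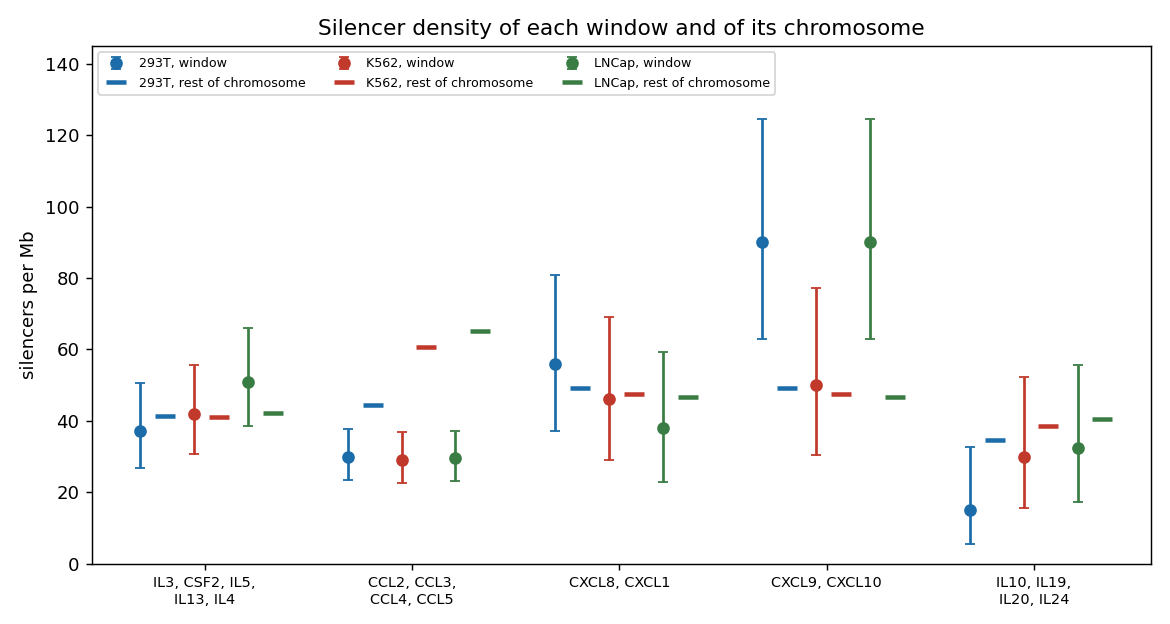
Silencers per Mb (y axis) in each window, named by its genes (x axis), for the 293T, K562 and LNCap lists. Points are windows with exact Poisson 95% intervals and dashes are the rest of the same chromosome; all 3 points of the CCL2 window lie under their dashes, and those of 293T and LNCap in the CXCL9 window lie above.

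In the CXCL9 window, with the interferon-induced T cell attractants CXCL9 and CXCL10, 36 silencers were listed in 293T, with 20 in K562 and 36 in LNCap. The density was 90.0 per Mb in 293T, against 49.3 on the rest of chromosome 4, a ratio of 1.83 (exact 95% interval 1.28 to 2.53). It was 50 per Mb in K562, against 47.5, a ratio of 1.05 (0.642 to 1.63), and 90.0 in LNCap, against 46.8, a ratio of 1.92 (1.35 to 2.67). Thus 293T and LNCap exceeded their chromosome beyond counting error and K562 did not, but among silencers at least 100 bp wide the intervals of 293T (1.66, 0.796 to 3.06) and LNCap (1.86, 0.961 to 3.26) included 1. Of 7182 genome tiles of the same length with any silencer, 98.1% held fewer than the window in 293T, with 62.3% in K562 and 92.0% in LNCap. The neighbouring stretches of equal length held 27 and 21 silencers in 293T, 32 and 8 in K562, and 39 and 12 in LNCap. Against these stretches the ratio was 1.5 in 293T (0.946 to 2.36) and 1 in K562 (0.554 to 1.75), while LNCap had 1.41 (0.895 to 2.21), and each interval includes 1.

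Most of the CXCL9 window's silencers lay in its first 300 kb. Its fullest 100 kb, from 75.9 to 76.0 Mb, held 19 silencers in 293T, with 5 in K562 and 11 in LNCap, a total above that of 97.7% of occupied 100 kb bins of the genome. The bin before it held 9, 6 and 13, and the bin after it 6, 4 and 9. A stretch of 61.4 kb from 76130101 to 76191517 held none in any list. The highest scores were 4.3 in 293T (76130051 to 76130101), 3.1 in K562 (75974910 to 75975050), while LNCap had 3.8 (75962373 to 75962473). The activity score is the authors' own, on a scale that is not stated, and it starts at 2. The K562 silencer overlapped one in LNCap scoring 2.5; the other 2 overlapped no other list. Next in 293T came 3.7 at 75922151 to 75922251 and 3.2 at 75886101 to 75886151, and next in LNCap 3.6 at 75942289 to 75942339 and 3.3 at 76062701 to 76062751.

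The CCL2 window, with attractants of monocytes and T cells, held 72 silencers in 293T, with 70 in K562 and 71 in LNCap. These near-equal counts differed from chromosome 17 as a whole, where K562 and LNCap had more than 293T. The density was 30.0 per Mb in 293T, against 44.4 on the rest of the chromosome, a ratio of 0.676 (0.528 to 0.854). It was 29.2 in K562, against 60.7, a ratio of 0.480 (0.374 to 0.608), and 29.6 in LNCap, against 65.1, a ratio of 0.454 (0.354 to 0.574). Of 1209 genome tiles of the same length, 14.9% held fewer in 293T, with 13.2% in K562 and 12.3% in LNCap. The stretch of equal length before the window held 122 silencers of 293T, 164 of K562 and 184 of LNCap, and the stretch after it 3, 6 and 6. Against both stretches together, the LNCap ratio of 0.747 left 1 (0.561 to 0.987). The 293T ratio was 1.15 and the K562 ratio 0.824, and their intervals included 1 (0.850 to 1.55 and 0.614 to 1.09). The near-empty stretch after the window raises these ratios.

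The end of the CCL2 window was all but empty. After a 293T silencer that ended at 35754607, no list held a silencer for 214 kb. Then 4 lay together between 35968901 and 35971751, 3 of 293T with scores of 2.6, 4.2 and 2.5 and 1 of K562 with 2.3. From there no list held a silencer until 36704801, a stretch of 733 kb of which 428 kb, or 17.8% of the window, lay inside it. Only 40 of the 366989 stretches between neighbouring regions in the genome were longer, and 4 of those were on chromosome 17; the median stretch was 4.08 kb. The sparse zone went on beyond the window: from 36.0 to 38.5 Mb there were 3 silencers in 293T, with 6 in K562 and 6 in LNCap, whereas the 500 kb from 39.0 Mb held 36, 50 and 61. The lists do not say which sequence could be measured there, and the cause was not tested.

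**Figure D2:**
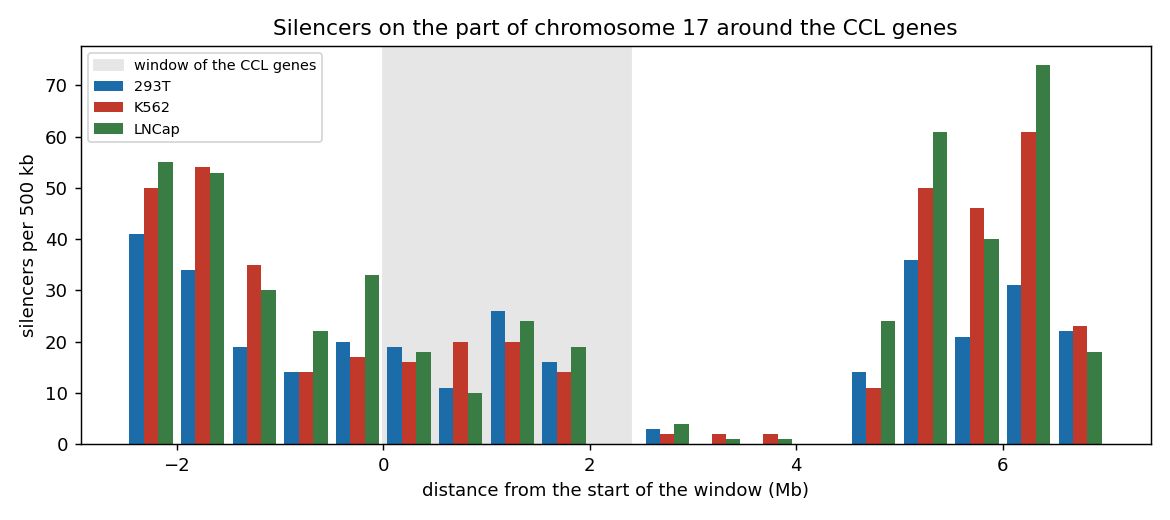
Silencers per 500 kb (y axis) against the distance in Mb from the start of the CCL2 window (x axis) on chromosome 17, with 1 bar for each list and the window shaded. Counts lie between 10 and 26 in the first 4 steps of the window and between 0 and 4 from 2 to 4.5 Mb, in all 3 lists.

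Before the empty end, over the first 1.75 Mb of the CCL2 window, the lists held 69 silencers in 293T, with 69 in K562 and 71 in LNCap. That is 39.3 per Mb in 293T (30.6 to 49.8), 39.3 in K562 (30.6 to 49.8), while LNCap had 40.5 (31.6 to 51.0). The ratio to the rest of chromosome 17 was then 0.887 in 293T (0.688 to 1.12), 0.647 in K562 (0.503 to 0.821), while LNCap had 0.621 (0.485 to 0.785). The filled part was thus still sparser than the rest of the chromosome in K562 and LNCap, and in 293T not beyond counting error. In K562 low counts were not confined to the window. The 500 kb steps from 33.0 and 33.5 Mb, just before it, held 14 and 17 silencers of K562, 14 and 20 of 293T, and 22 and 33 of LNCap. Those from 31.5 and 32.0 Mb held more, with 50 and 54 of K562, 41 and 34 of 293T, and 55 and 53 of LNCap. Whether the filled part differs from these steps was not tested. The cut at the start of the empty end was chosen after that end had been seen.

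The highest scores of 293T and K562 over the 5 windows lay in this one. In K562, silencers at 35615859 to 35615950 and 35616000 to 35616059 scored 5.4 and 4.8, which 0.157% and 0.423% of the K562 list reached; with 1 more beside them they formed a group spanning 300 bp. In 293T the highest score was 5.3, at 35474701 to 35474751, reached by 0.386% of the list, followed by 4.2 at 35969701 to 35969751. In LNCap it was 3.7, at 34089201 to 34089251, and 3 silencers tied at 3.2, of which the one at 35616251 to 35616301 lay just after the K562 group. None of these overlapped another list. The fullest bins ran from 35.4 to 35.7 Mb, with 6, 8 and 2 silencers in 293T, 6, 4 and 7 in K562, and 8, 6 and 9 in LNCap.

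In the IL4 window, with the type 2 cytokines and the growth factors IL3 and CSF2, 41 silencers were listed in 293T, with 46 in K562 and 56 in LNCap. The density was 37.3 per Mb in 293T, 41.8 in K562 and 50.9 in LNCap, against 41.4, 41.0 and 42.3 on the rest of chromosome 5. None of the ratios left 1 beyond counting error: 0.901 in 293T (0.646 to 1.22), 1.02 in K562 (0.746 to 1.36), while LNCap had 1.20 (0.908 to 1.56). The silencers were uneven along the window. Its fullest bins were 132.9 to 133.0 Mb, with 6 silencers of 293T, 7 of K562 and 15 of LNCap, and 132.6 to 132.7 Mb, with 12, 4 and 6. From 132418529 to 132482568, a stretch of 64.0 kb, no list held any.

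The IL4 window also held the site with the highest scores shared by lists in the 5 windows. Around 131962051 to 131962240, spanning 189 bp, 293T listed 1 silencer with a score of 3.7, K562 1 with 4.1 and LNCap 1 with 3.0. The 293T and K562 silencers overlapped, while the LNCap silencer began at 131962190, beyond the end of both. The K562 score was the highest of its list in the window and the 293T score the second, after 3.8 at 132899285 to 132899335. At 132618203 to 132618503 lay a group of 3 silencers in 293T, the highest with 2.8, of which 2 overlapped 1 of K562 with 2.4. A LNCap silencer with 2.1 lay inside this span, at 132618301 to 132618351, and overlapped no other list. K562 and LNCap each had a group of 3 that lay across each other, at 132707542 to 132708289 with a highest score of 3.0 in K562 and at 132707869 to 132708419 with 3.3 in LNCap; 2 silencers of each group overlapped the other list. No 293T silencer lay from 132713879 to 132845109, a stretch of 131 kb.

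In the CXCL8 window, with the neutrophil attractants CXCL8 and CXCL1, 28 silencers were listed in 293T, with 23 in K562 and 19 in LNCap. The ratios to the rest of chromosome 4 were 1.14 in 293T (0.755 to 1.64), 0.968 in K562 (0.613 to 1.45), while LNCap had 0.813 (0.489 to 1.27), so no list left its chromosome beyond counting error. The highest score was 4.6 in 293T, at 73787100 to 73787150, reached by 1.16% of the list. It was 3.0 in K562, at 73745901 to 73745951, and 2.6 in LNCap, at 73772900 to 73772975. LNCap had none after 74080501, whereas the last 100 kb of the window held 6 silencers in 293T and 2 in K562. The longest stretch free of all lists was 27.7 kb, the shortest such maximum of the 5 windows.

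The IL10 window held 6 silencers in 293T, with 12 in K562 and 13 in LNCap. The 293T density of 15.0 per Mb was 0.433 times the 34.6 on the rest of chromosome 1 (0.159 to 0.944), and 4.59% of genome tiles held fewer. In K562 the ratio was 0.776 (0.401 to 1.36) and in LNCap 0.801 (0.426 to 1.37). The 293T ratio rests on 6 silencers and no longer left 1 when neighbours within 500 bp were joined (0.500, interval 0.183 to 1.09). The interval also included 1 above the median score (0.345, 0.0417 to 1.25) and at widths of at least 100 bp (0.456, 0.0552 to 1.65). Against the neighbouring stretches of equal length, which held 6 and 22 silencers in 293T, the ratio was 0.429 (0.145 to 1.05). The 6 lay singly, each with no neighbour within 500 bp in its list, and the highest score was 2.4, which 43.7% of the 293T list reached. In K562 and LNCap the highest score was 2.7. The stretch from 206892826 to 206964601, 71.8 kb, was empty in all lists. LNCap had a group of 3 at 206984301 to 206984851, with a highest score of 2.6.

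**Figure D3:**
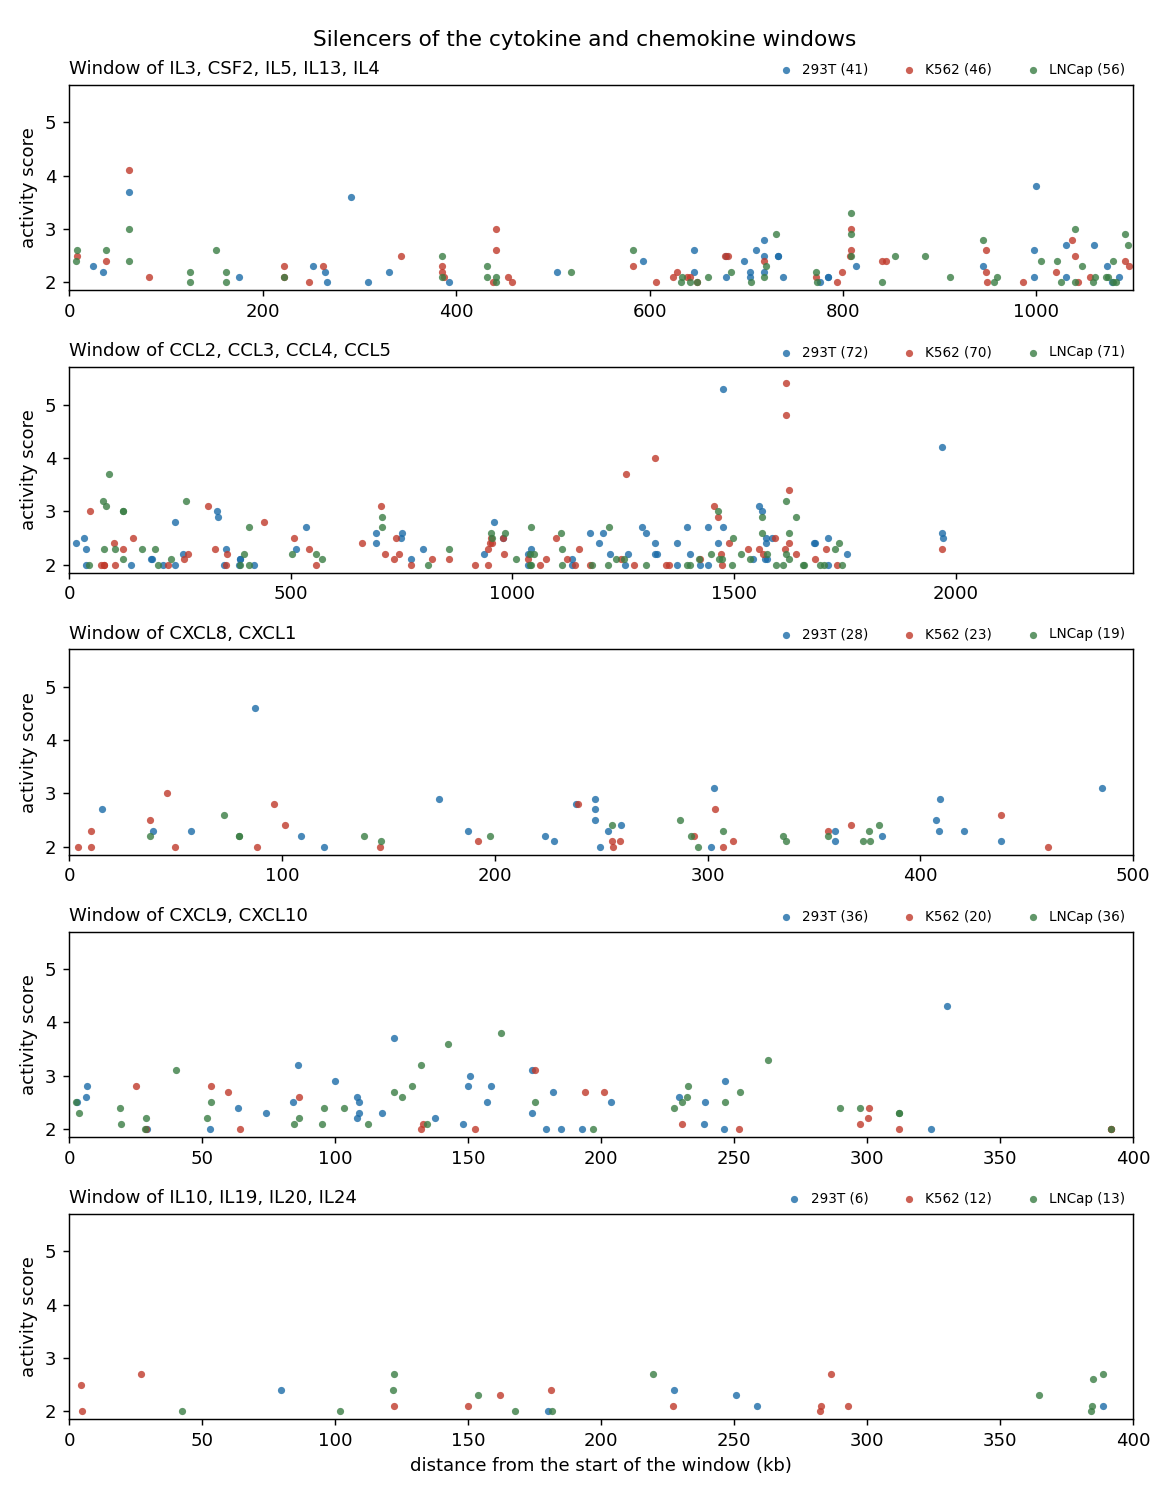
Activity score (y axis) against the distance in kb from the start of each window (x axis), 1 point for each silencer, with the number of silencers of each list in brackets. Scores bunch near 2 in every window, the CCL2 window is empty at its far end, and the points above 5 are 1 silencer of 293T and 1 of K562 in the CCL2 window.

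The study set the lines against each other, and the windows were compared in the same way. With the lists scaled to equal size, the pooled count of 293T was 1.09 times the mean of K562 and LNCap (0.904 to 1.30), and K562 was 0.90 times LNCap (0.729 to 1.11). Among the 15 ratios of 1 list to another in single windows, the interval left 1 in the CXCL9 window alone, where 293T was 1.93 times K562 (1.09 to 3.52); K562 was 0.57 times LNCap there (0.313 to 1.01). Which of these 15 ratios left 1 changed with the scaling. Relative to each list's own silencers on the chromosome, 293T was 1.73 times K562 in the CXCL9 window (0.976 to 3.16), which includes 1. In that scaling K562 over LNCap in the CXCL9 window (0.547, 0.300 to 0.971) and 293T over LNCap in the CCL2 window (1.48, 1.05 to 2.08) left 1 instead. K562 over the mean of 293T and LNCap in the CXCL9 window left 1 in both scalings. It was 0.543 by list size (0.314 to 0.904) and 0.562 by own chromosome (0.325 to 0.934), with the other lists pooled for the intervals. The intervals were not adjusted for the number of ratios looked at. All these ratios compare lists and, with no replicate lists, do not test the lines.

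**Figure D4:**
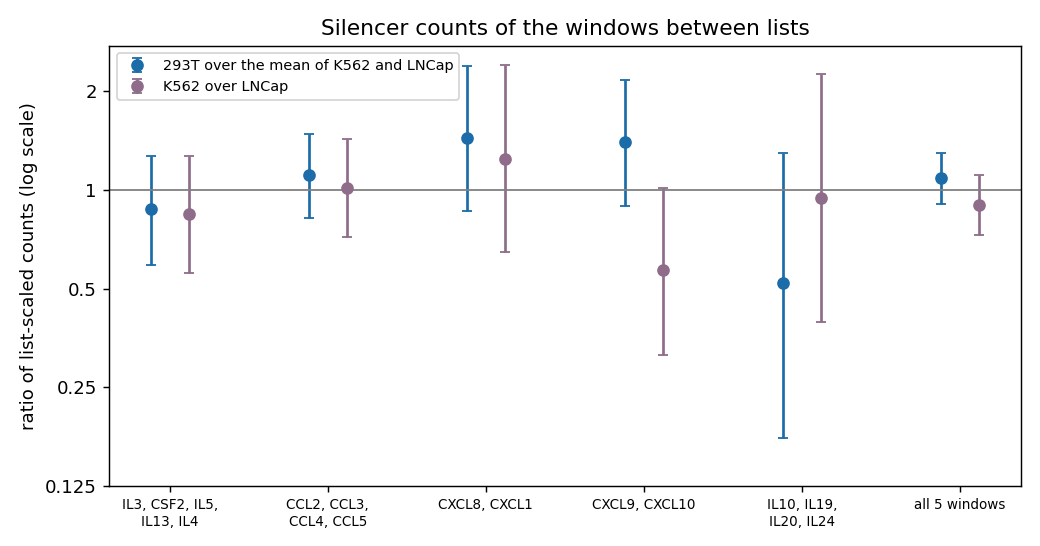
Ratio of list-scaled silencer counts (y axis, log scale) in each window and in all 5 together (x axis), for 293T over the mean of K562 and LNCap and for K562 over LNCap, with exact 95% intervals; those of the first ratio pool the counts of the other lists. In this scaling every interval includes 1; the 293T ratio of the IL10 window has the widest, from 0.175 to 1.30.

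Within the windows 27 of the 48 bins of 100 kb held at least 10 silencers over the lists. A bin was counted where a list, scaled for size, exceeded 2 times the other lists' mean or stayed below 0.5 times that mean. 293T was over in 5 of the 27, against 14.3% of all such bins of the genome, and under in 3, against 17.9%. K562 was over in 1 (8.32% in the genome) and under in 2 (15.6%), and LNCap over in 2 (9.13%) and under in 3 (15.9%). The difference between the windows and the genome in these shares was not tested. The 5 bins high in 293T began at 132.6 Mb in the IL4 window (2.61 times), 34.3 Mb (2.52 times) and 35.3 Mb (3.46 times) in the CCL2 window, 73.9 Mb in the CXCL8 window (2.17 times) and 75.9 Mb in the CXCL9 window (2.59 times). Those low in 293T began at 132.7 Mb (0.198 times), directly after the high one, at 35.6 Mb (0.272 times) and at 206.7 Mb (0.218 times). The low bins held 1, 2 and 1 silencers of 293T and the high ones 12, 7, 8, 9 and 19, so the low folds rest on few silencers. LNCap was high from 132.9 Mb (2.18 times) and from 206.7 Mb (2.31 times), and K562 from 34.9 Mb (2.61 times).

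Few silencers of the windows were shared between lists, at shares near those of the whole lists. Overlap was counted from 1 bp. In 293T 6 of 183 overlapped a K562 silencer (3.28%, Wilson interval 1.51 to 6.97), against 3.3% of the whole list, and 5 a LNCap silencer (2.73%, 1.17 to 6.24), against 3.58%. In K562 5 of 171 overlapped 293T (2.92%, 1.26 to 6.66), against 3.03%, and 23 LNCap (13.5%, 9.13 to 19.4), against 15.7%. In LNCap 5 of 195 overlapped 293T (2.56%, 1.10 to 5.86), against 3.23%, and 24 K562 (12.3%, 8.41 to 17.7), against 15.4%. Each whole-list share lay inside the interval of the windows. At least 1 other list was met by 11 silencers in 293T (6.01%, against 6.09% of the list), 28 in K562 (16.4%, against 17.9%) and 28 in LNCap (14.4%, against 17.8%). Absence from a list may also be a missed silencer, which 1 list per line does not separate.

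**Figure D5:**
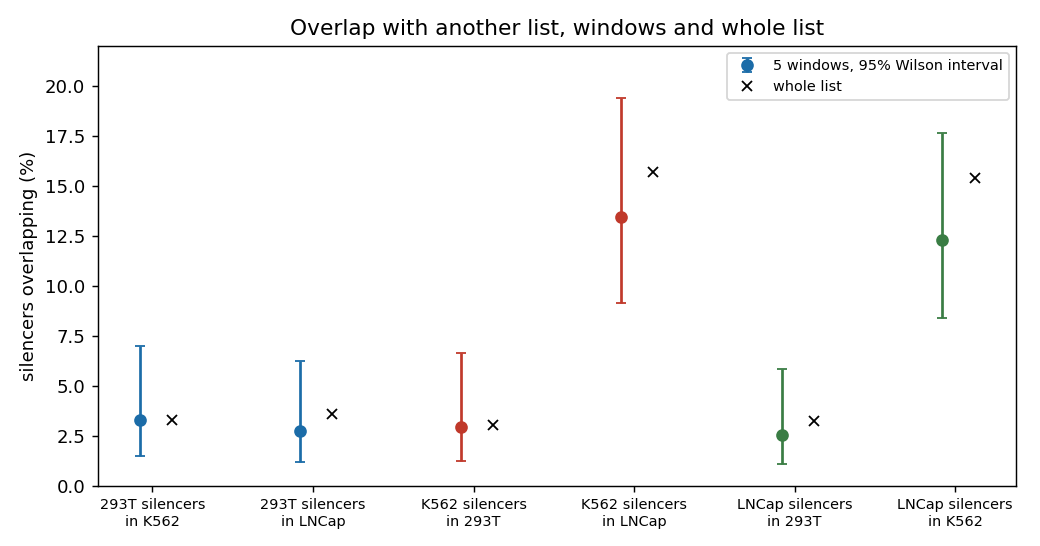
Share of silencers that overlap another list (y axis, percent) for the 6 ordered pairs of lists (x axis). Points are the 5 windows with Wilson 95% intervals and crosses are the whole list; every cross lies within its interval, and the pairs of K562 and LNCap are the highest.

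Joined where they overlap, the silencers of the windows formed 513 regions. Of these, 172 were held by 293T alone (33.5%, against 32% of the regions of the genome), 143 by K562 alone (27.9%, against 30%) and 167 by LNCap alone (32.6%, against 30.9%). K562 and LNCap shared 21 (4.09%, against 5.11%), of which 8 lay in the IL4 window, 6 in the CCL2 window, 4 in the CXCL9 window, 2 in the CXCL8 window and 1 in the IL10 window. 293T and K562 shared 5 (0.975%, against 0.763%), and 293T and LNCap 4 (0.780%, against 0.856%). The 2 highest scores of a shared region were those of 293T and K562 at 131962051 to 131962115. Among regions of K562 and LNCap, the highest score in LNCap was 3.2 at 75932101 to 75932207, where K562 scored 2.0, and the highest in K562 3.1 at 75974910 to 75975050, where LNCap scored 2.5. Only 1 shared region had the same start and end in both lists, 74056601 to 74056651 in the CXCL8 window, with 2.3 in K562 and 2.2 in LNCap.

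A single region was held by all 3 lists, against 0.372% of 367013 regions in the genome (0.195% here, Wilson interval 0.0344 to 1.10). It lay in the CCL2 window at 35464301 to 35464547, with a 293T score of 2.4, a K562 score of 2.9 and a LNCap score of 3.0. The 293T silencer, which ended at 35464351, met the LNCap silencer, which began at 35464350, and did not reach the K562 silencer, which began at 35464451. When regions were joined across gaps of up to 500 bp, a rule chosen after this was seen, 6 of 402 were held by all lists (1.49%, 0.686 to 3.22), against 1.45% in the genome. Besides this region and the 2 sites of the IL4 window described above, they were 3 in the CXCL9 window: 75828551 to 75829401, with no score above 2.2; 75852801 to 75853351, led by K562 with 2.8; and 75886101 to 75886801, led by 293T with 3.2. The CXCL8 and IL10 windows had none.

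Scores of the window silencers were close to those of the lists. The median score was 2.3 in 293T, 2.2 in K562 and 2.2 in LNCap, as in the whole lists. In 293T 27.9% of window silencers reached the list's upper quartile of 2.6 (21.9 to 34.8), against 29.6% of the list. In K562 27.5% reached 2.5 (21.3 to 34.6), against 29.1%, and in LNCap 24.6% reached 2.6 (19.1 to 31.1), against 25.7%. By window, the CXCL9 window had the highest median in 293T (2.5) and LNCap (2.4), on 36 silencers each. In K562 the median there was 2.1, on 20 silencers, below that of its list. In the CXCL8 window 1 of 19 LNCap silencers reached the list's upper quartile, and in the IL10 window 0 of 6 in 293T. No window silencer had an infinite score.

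Most silencers were 50 bp wide. In 293T these were 72.1% in the windows (65.2 to 78.1), against 64.5% of the whole list, which lies below that interval. In K562 they were 57.9% (50.4 to 65.0), against 58.7%, and in LNCap 63.1% (56.1 to 69.5), against 60.6%. Over 300 bp wide were 10 in all, of which 293T had 2 (1.09%, against 1.39% of the list), K562 had 4 (2.34%, against 2.32%) and LNCap had 4 (2.05%, against 2.28%). The widest was a K562 silencer of 641 bp at the end of the IL4 window (132990933 to 132991574, score 2.4), inside which LNCap listed one of 50 bp with 2.9. Next came a K562 silencer of 600 bp at 132337751 to 132338351, at the lowest score of 2. A LNCap silencer of 500 bp in the CXCL9 window (75886301 to 75886801) enclosed one of 300 bp in K562, and in the CCL2 window a LNCap silencer of 450 bp (34953451 to 34953901) enclosed one of 350 bp in K562. The others were of 403 bp in 293T (34936650 to 34937053) and 350 bp in LNCap (35610601 to 35610951) in the CCL2 window, 400 bp in 293T in the CXCL8 window (73739301 to 73739701), and 400 bp in K562 and 348 bp in LNCap in the IL4 window (132743819 to 132744219 and 132855503 to 132855851).

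Neighbours within 500 bp in the same list were more frequent in the windows in 293T, with 64 of 183 silencers (35.0%, 28.4 to 42.1), against 26.1% of the whole list. K562 had 33 of 171 (19.3%, 14.1 to 25.9), against 25%, and LNCap 51 of 195 (26.2%, 20.5 to 32.7), against 26.9%. The 293T share was highest in the IL4 window, with 17 of 41, and the CCL2 window, with 28 of 72, and 0 of 6 in the IL10 window. Neighbouring silencers are not independent, so these intervals are too narrow. Groups of 3 or more such neighbours numbered 8, of which 293T had 2, K562 had 3 and LNCap had 3. Besides those given above they lay at 132848107 to 132848694 in K562, 34120799 to 34121049 in LNCap and 73946901 to 73947251 in 293T, and none of those 3 overlapped another list. No count of such groups in the whole lists is given here, so whether 8 is many or few was not tested.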

How the data were processed

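Ss-STARR-seq silencer lists of 3 lines, 1 each, were deposited by the authors with chromosome, start, end and an activity score, per the file headers; no score lies below 2 and its scale is not stated. Reads were handled with Bowtie2 and SAMtools on hg38, per the submitters' processing notes; which program called the silencers, at what thresholds and on which pooled libraries, is not given in the sources used here. Broken lines, lines off the main chromosomes, and lines whose width was not positive or passed 5000 bp were left out (58 in 293T, 12 in K562, 24 in LNCap). Positions are printed as the files give them, with the base of the start coordinate unstated. Chromosome length was the highest end in any list. Density ratios carry exact conditional intervals, shares Wilson intervals, all at 95% and for counting error only. Fisher's exact tests between lists were run and are not reported, since each line has 1 list. Genome tiles did not overlap each other. Windows were chosen by gene, and windows, tests and naming rules with earlier results of these data known. Regions named were the highest scores, regions held by all lists, widths over 300 bp, fullest bins and longest empty stretches of each window. The gene tables at hand were of the mouse, so planned gene, base composition and sequence descriptions were not made. Functions were tested on simulated data. The work was done in Python 3.11.15 with scipy 1.17.1, pandas 2.3.3, numpy 2.4.6 and matplotlib 3.10.9.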

Additional observations from a re-analysis of the deposited data

How the results depend on the processing

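Stricter filters left fewer silencers by construction: above the median score 85 silencers were left in 293T, with 80 in K562 and 92 in LNCap, and at least 100 bp wide 49, 61 and 69. The pooled density ratio of K562 was 0.977 without the CCL2 window, no longer past counting error, and that of LNCap turned to 1.18; the ratio of 293T left 1 with neighbours within 500 bp joined (0.835), at widths of at least 100 bp (0.739), without the CXCL8 window (0.835) and without the CXCL9 window (0.772). Scaled to the windows' own chromosomes, 293T over the mean of K562 and LNCap was 1.22 (1.01 to 1.45) over all windows and 1.44 (1.07 to 1.93) in the CCL2 window, and K562 over LNCap in the CXCL9 window was 0.547 (0.300 to 0.971); above the median score that ratio was 0.349 (0.136 to 0.799). Shares of overlap grew with midpoints within 500 bp, to 8.20% for 293T in K562, 10.4% for 293T in LNCap, 7.02% for K562 in 293T, 32.7% for K562 in LNCap, 8.21% for LNCap in 293T and 29.2% for LNCap in K562. With silencers set to 300 bp they were 8.20% for 293T in LNCap and 29.8% for K562 in LNCap. They were 6.15% for LNCap in 293T and 26.7% for LNCap in K562. A wider reach meets more silencers by construction. Whole-list shares were not computed under these 2 rules, so these shares cannot be set against the whole-list shares given for overlap from 1 bp. Bins past 2-fold either way numbered 8 of 27 in 293T, 3 in K562 and 5 in LNCap. With at least 15 silencers a bin they were 4 of 12 in 293T and 1 in LNCap. In 50 kb bins with at least 5 silencers they were 28 of 57 in 293T, 26 in K562 and 24 in LNCap. That alternative changed the bin width and the minimum together. Genome shares were not computed for either alternative, so these counts cannot be set against the genome. For single windows, 293T in the CCL2 window no longer left 1 above the median score (0.749, 0.520 to 1.05) or with the window ended at its last silencer (0.820), an alternative added after seeing the data; nor did 293T (1.66) and LNCap (1.86) in the CXCL9 window at widths of at least 100 bp. In the IL10 window 293T no longer left 1 above the median score (0.345), with neighbours within 500 bp joined (0.500) or at widths of at least 100 bp (0.456). The causes of the other changes were not tested. No paired analysis was possible because each line has 1 list and no value per library.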
